A study of Homo sapiens with 24 samples.

Results

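Matrix metalloproteinases (MMPs) are zinc-dependent endopeptidases that cells secrete or carry on their surface as inactive proenzymes. Once the propeptide is removed they cleave collagens, other matrix proteins, growth factors and receptors. Tissue inhibitors of metalloproteinases (TIMPs) bind the active site of these enzymes and hold them in check, and TIMP2 also takes part in the activation of the gelatinase MMP2 by the membrane-bound MMP14. In carcinomas both families are known for their part in matrix remodelling and invasion. Here 10 genes of these families, 7 for MMPs (MMP1, MMP2, MMP3, MMP7, MMP10, MMP13 and MMP14) and 3 for TIMPs (TIMP1, TIMP2 and TIMP3), were taken by name from 34834 genes whose transcripts were measured. The level of a gene is the sum over its Ensembl transcripts, in TPM, a relative abundance that divides by transcript length and so allows levels of different genes to be compared.

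The cells were SK-MES1 (SK-MES-1 in the labels), an established line from a squamous cell carcinoma of the lung. All cultures of this single line were kept without serum for 3 h and then with TGFβ1 at 2 ng/ml or without it. Total RNA was collected at 0, 8, 24 and 48 h. Per the study's methods TGFβ1 was given in growth factor-depleted medium, and no return of serum is described for either arm. Each arm had 3 replicates per time, which makes 24 RNA-Seq libraries in 8 groups, 12 libraries per arm. The comparisons address how the transcripts of these proteases and inhibitors changed when the cells were exposed to TGFβ, and how they changed over the same hours without it.

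Libraries held between 46613589 and 77964234 estimated counts. Of 9 squamous and epithelial markers 6 had a mean of 1 TPM or more (KRT17, TP63, KRT8, KRT18, CDH1 and EPCAM). KRT5, KRT6A and KRT14, keratins of basal and stratified squamous cells, stayed below it in both arms. The 5 fibroblast markers summed to 198 to 308 TPM in untreated and 188 to 2381 TPM in TGFβ libraries, with the collagen gene COL1A1 at means of 158 and 2255 TPM at 48 h. By an F-test over 8, 24 and 48 h, 2 of them were higher and 3 lower with TGFβ, beside 21% and 21.5% of all tested genes. The 5 immune and endothelial markers summed to 13.4 to 43.4 TPM over all libraries. The part of these markers in the results was not tested. The 5 listed TGFβ target genes, PMEPA1, TGFBI, SMAD7, LTBP2 and SKIL, were all higher in the TGFβ arm at 8, 24 and 48 h. They were chosen with earlier results of these data known, so this is no independent check. At 0 h no gene of 17454 passed the threshold in limma voom, with 800 at an unadjusted p below 0.05, 0 calls by edgeR and 8 by DESeq2. None of the 9 tested members was below an unadjusted 0.05 there. Library names carry 4 codes of unstated meaning. Each arm has one code for its 0 and 8 h libraries and another for its later libraries, so that code and arm cannot be told apart within a time point. Changes from 0 to 8 h and from 24 to 48 h lie within a code.

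Of the 10 genes, 9 passed the filter of 10 estimated counts in 3 libraries. MMP3 never exceeded 3 counts and was not tested. MMP10 passed narrowly, with 10 counts or more in 9 libraries and a mean of 9.13 over all 24, and MMP13 had a mean of 29.4 counts. At the other end, MMP2 had a mean of 76353 counts per library. A filter of this kind lets in a low gene through the group in which it is high, which among the members touches MMP10. Tests were run by limma voom across all 17454 genes, and a change was called at an adjusted p below 0.01. In bulk RNA, fewer cells that express a gene and less RNA per cell cannot be told apart.

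The genes of 5 members lie together. MMP7, MMP10, MMP1, MMP3 and MMP13 sit in this order, all on the minus strand, in a cluster of 9 MMP genes that spans 435.2 kb of chromosome 11 (GRCh38), from MMP7 at chr11:102520508-102530750 to MMP13 at chr11:102942995-102955732. The others are dispersed, with MMP2 at chr16:55389700-55506691, MMP14 at chr14:22836560-22849041, TIMP1 at chrX:47582408-47586789, TIMP2 at chr17:78852977-78925387 and TIMP3 at chr22:32801705-32863041. TIMP1 lies within the synapsin gene SYN1 and TIMP3 within SYN3, both on the opposite strand, but SYN1 did not exceed 0.205 TPM and SYN3 did not exceed 0.525 TPM in any library. The pseudogene WTAPP1, which overlaps MMP1, MMP3 and MMP10 on the opposite strand, had 0.682 to 2.84 TPM. Because it is unstated whether the libraries kept strand, reads of the weakly expressed cluster genes and of WTAPP1 may not be fully separable.

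To show what precedes the start sites, 120 bases of promoter sequence were taken for 4 members from the RefSeq promoter table used here (GRCh38.p14). Bases in annotated exons were left out. The printed bases therefore end at -4 from the RefSeq start for MMP7, -26 for MMP14 and -1 for MMP10 and TIMP3. Capitals mark the AP-1 motif TGANTCA, the TATA box TATAAA and the SMAD motif CAGAC or its reverse complement GTCTG. MMP7 and MMP10 stand for the cluster, MMP14 and TIMP3 for the dispersed genes that the results below turn on. That promoter table held no entry for MMP1, MMP2, MMP3, MMP13 and TIMP2, so these were not searched for motifs.
MMP7: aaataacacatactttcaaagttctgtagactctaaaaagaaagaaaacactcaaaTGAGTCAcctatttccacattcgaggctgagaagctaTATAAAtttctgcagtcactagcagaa
MMP10: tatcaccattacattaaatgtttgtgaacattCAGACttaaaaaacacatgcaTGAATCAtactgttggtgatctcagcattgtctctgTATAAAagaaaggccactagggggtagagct
MMP14: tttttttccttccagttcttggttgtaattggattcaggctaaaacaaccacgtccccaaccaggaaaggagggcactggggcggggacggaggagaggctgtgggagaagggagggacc
TIMP3: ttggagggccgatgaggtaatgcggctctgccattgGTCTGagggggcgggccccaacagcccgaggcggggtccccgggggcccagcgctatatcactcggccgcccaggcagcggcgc
The MMP7 sequence lies at chr11:102530751-102530870 and that of MMP10 at chr11:102780629-102780748, both on the minus strand, and those of MMP14 at chr14:22836440-22836559 and of TIMP3 at chr22:32801585-32801704 on the plus strand. In MMP7 the AP-1 letters were TGAGTCA and in MMP10 TGAATCA, in both genes at -67 to -61 from the RefSeq start, with TATAAA from -30 in MMP7 and from -31 in MMP10. Neither motif was in the 250 bases before the starts of MMP14, TIMP1 or TIMP3. CAGAC or GTCTG was in those of MMP7, MMP10 and TIMP3. Over 34796 promoters of that length, 6.59% held TGANTCA, 10.8% held TATAAA and 38% held CAGAC on either strand. A match describes letters only, and MMP7 and MMP10, which share this arrangement, differed widely in level, as given below.

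MMP2, the gelatinase that cleaves denatured collagen and basement membrane collagen, was the MMP with the highest level in every library. In untreated cells it measured 363, 384 and 363 TPM at 0 h, 430, 451 and 448 at 8 h, 611, 637 and 609 at 24 h and 816, 803 and 821 at 48 h. In TGFβ-treated cells it measured 344, 400 and 366 TPM at 0 h, 673, 655 and 661 at 8 h, 1277, 1411 and 1262 at 24 h and 2285, 2263 and 2313 at 48 h. The arms overlapped at 0 h and were fully separated from 8 h on, with every TGFβ library above every untreated one. On the fitted scale MMP2 was 1.59-fold higher with TGFβ at 8 h, 2.12-fold higher at 24 h and 2.91-fold higher at 48 h. The log2 differences were 0.67 (SE 0.0554, adjusted p = 5.64e-09), 1.08 (SE 0.0541, adjusted p = 7.47e-13) and 1.54 (SE 0.0529, adjusted p = 1.04e-15). Both arms rose from their own 0 h libraries, by log2 1.07 in untreated and 2.63 in TGFβ cells at 48 h. The rise in untreated cells at 8 h, 0.24 (adjusted p = 0.00205), lost its call without untreated replicate 2 of 0 h (0.21, adjusted p = 0.0165) or of 8 h (0.23, adjusted p = 0.0104). It was also not called when libraries were scaled to the 4 qRT-PCR reference genes of the study (0.08, adjusted p = 0.106), of which 3 were themselves lower with TGFβ by the F-test.

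**Figure D1:**
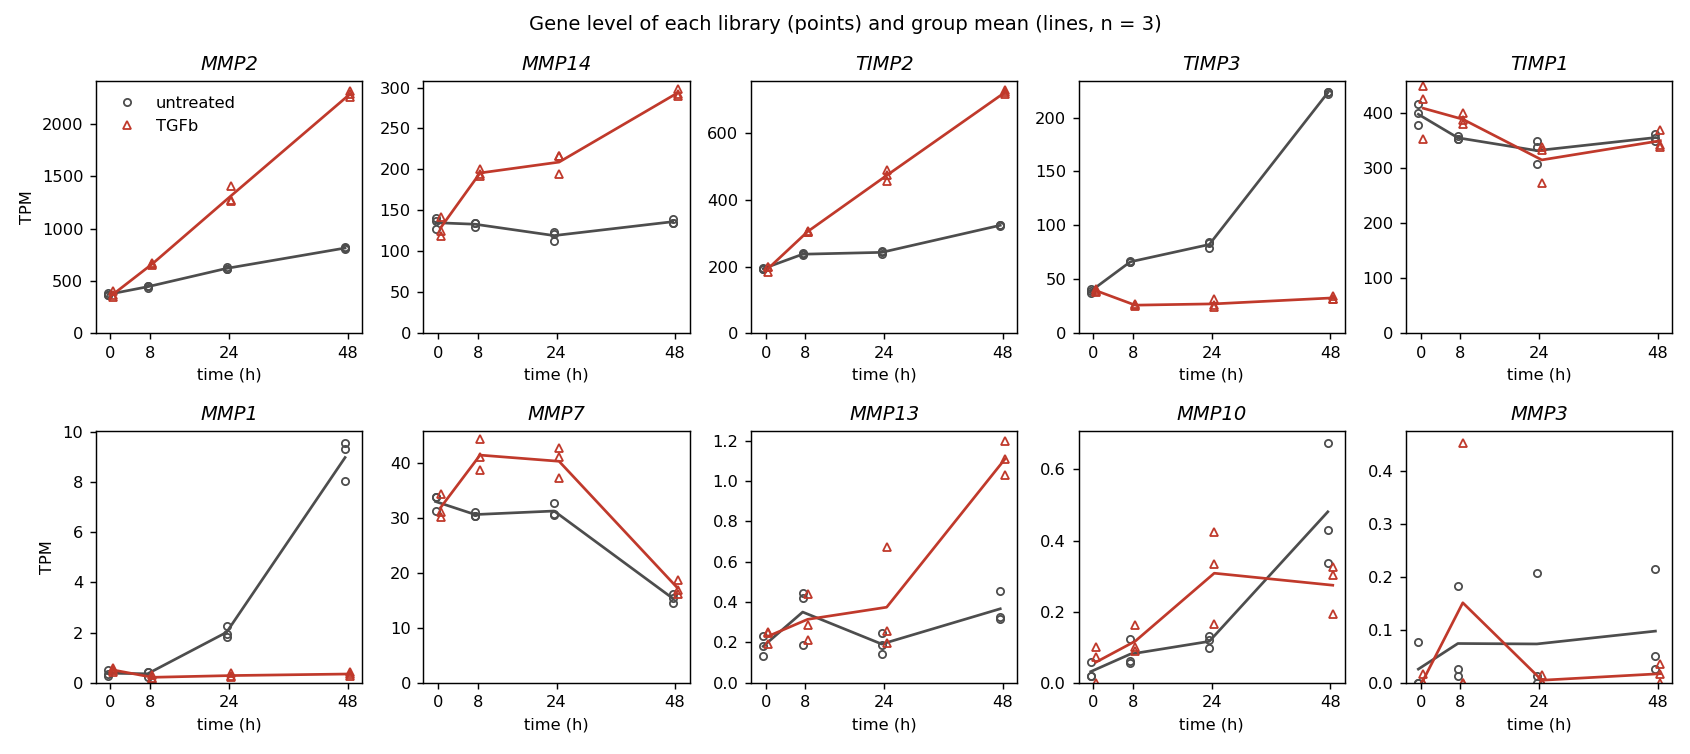
Gene level in TPM (vertical axis) against time in hours (horizontal axis) for each of the 10 genes, with circles for untreated and triangles for TGFβ libraries, shifted slightly sideways, and lines through the means of 3 replicates. MMP2, MMP14 and TIMP2 part upward with TGFβ, TIMP3 and MMP1 climb in untreated cells only, to means of 223 and 8.97 TPM at 48 h, and MMP10 and MMP3 stay below 1 TPM.

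MMP14 encodes the membrane-type protease MT1-MMP, which cleaves fibrillar collagen at the cell surface and activates pro-MMP2. Untreated libraries kept close to one level, with 140, 128 and 137 TPM at 0 h, 134, 135 and 130 at 8 h, 121, 112 and 124 at 24 h and 139, 135 and 134 at 48 h. With TGFβ the values were 124, 119 and 142 TPM at 0 h, 201, 194 and 192 at 8 h, 216, 195 and 216 at 24 h and 293, 299 and 289 at 48 h. From 8 h the lowest TGFβ library was above the highest untreated one. The log2 difference was 0.63 at 8 h (SE 0.0521, adjusted p = 5.74e-09), 0.84 at 24 h (SE 0.0525, adjusted p = 2.7e-11) and 1.12 at 48 h (SE 0.0521, adjusted p = 1.74e-13), or 1.55-, 1.8- and 2.17-fold. The TGFβ arm rose by log2 0.55, 0.66 and 1.03 at 8, 24 and 48 h from its own 0 h. In untreated cells a small fall at 24 h was called (-0.19, adjusted p = 0.00509) and no change at 8 or 48 h. That call was lost without untreated replicate 1 or 3 of 0 h or replicate 2 of 24 h, with adjusted p up to 0.0382, and in 4 other settings. These were log2 TPM with either pseudocount (adjusted p = 0.0117 and 0.0118), library totals (adjusted p = 0.0216) and no filter on counts (adjusted p = 0.0113).

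TIMP2, the inhibitor that bridges MMP14 and pro-MMP2 on the membrane, followed a course like that of MMP2 at a lower level. It measured 194, 196 and 191 TPM in untreated cells at 0 h, 233, 237 and 241 at 8 h, 238, 243 and 247 at 24 h and 324, 321 and 326 at 48 h. In the TGFβ arm it measured 184, 198 and 199 TPM at 0 h, 303, 304 and 308 at 8 h, 456, 490 and 475 at 24 h and 723, 730 and 718 at 48 h. No TGFβ library overlapped an untreated one after 0 h. Differences of log2 0.42 (SE 0.0297, adjusted p = 5.56e-10), 0.99 (SE 0.0295, adjusted p = 1.46e-16) and 1.18 (SE 0.029, adjusted p = 4.03e-18) at 8, 24 and 48 h correspond to 1.34-, 1.99- and 2.26-fold. TIMP2 rose in both arms, by log2 0.65 in untreated and 1.80 in TGFβ cells at 48 h. The untreated rise at 24 h, 0.29, turned to -0.0109 (adjusted p = 0.91) with the reference genes as library size.

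TIMP3, the inhibitor that is held in the extracellular matrix and also blocks ADAM17 and several ADAMTS proteases, went the other way. Untreated libraries climbed from 37.5, 39.0 and 40.4 TPM at 0 h to 66.6, 66.1 and 65.6 at 8 h, 79.3, 83.1 and 84.2 at 24 h and 222, 224 and 224 at 48 h. TGFβ libraries began at 37.8, 41.3 and 39.4 TPM and measured 27.0, 24.8 and 26.0 at 8 h, 31.3, 24.5 and 25.7 at 24 h and 34.1, 31.8 and 32.0 at 48 h. At each time after 0 h all TGFβ libraries were below all untreated ones. The log2 difference was -1.30 at 8 h (SE 0.0615, adjusted p = 7.7e-13), -1.57 at 24 h (SE 0.0615, adjusted p = 1.22e-14) and -2.75 at 48 h (SE 0.0595, adjusted p = 5.09e-19), which is 2.46-, 2.97- and 6.75-fold lower. From its own 0 h the untreated arm rose by log2 0.72, 1.03 and 2.42, and the TGFβ arm fell by 0.62, 0.58 and 0.38. The fall at 48 h turned to a value of 0.22 (adjusted p = 0.0176) with the reference genes as library size, while the arm differences and the falls at 8 and 24 h kept their direction.

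TIMP1, a secreted inhibitor of most soluble MMPs and the TIMP with the highest level at 0 h, did not pass the test between the arms at any time. It measured 416, 378 and 400 TPM in untreated and 450, 352 and 425 TPM in TGFβ libraries at 0 h, and 362, 356 and 350 against 369, 343 and 338 TPM at 48 h. At 8 h the 3 TGFβ libraries (400, 388 and 380 TPM) were all above the untreated ones (353, 353 and 359 TPM), with a log2 difference of 0.18 (SE 0.0912, adjusted p = 0.163). It was called in a fit of the 8 h libraries alone (adjusted p = 0.000125), without the 4 replicate 2 libraries of 0 and 24 h (adjusted p = 0.00134) and when replicate was blocked separately by time (adjusted p = 0.00524). It was also called, at 0.24, with the reference genes as library size. At 24 h untreated libraries had 339, 307 and 350 TPM and TGFβ libraries 338, 273 and 334 TPM. The difference there was -0.06 (SE 0.0932, adjusted p = 0.668) and at 48 h -0.00 (SE 0.0932, adjusted p = 0.973), with both turned to called values of 0.39 and 0.35 under the reference genes. Within the TGFβ arm TIMP1 fell by log2 0.40 at 24 h (adjusted p = 0.000819) and by 0.31 at 48 h (adjusted p = 0.00603, and 0.28 with the opposite sign under the reference genes). The 48 h call was lost without TGFβ replicate 1 or 3 of 0 h or replicate 2 or 3 of 48 h, with adjusted p up to 0.0541, and on log2 TPM (adjusted p = 0.0217 and 0.0212). In untreated cells the change was -0.28 at 24 h (adjusted p = 0.0125) and -0.24 at 48 h (adjusted p = 0.028), and these became calls with the replicate block, at adjusted p = 0.00271 and 0.00756.

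**Figure D2:**
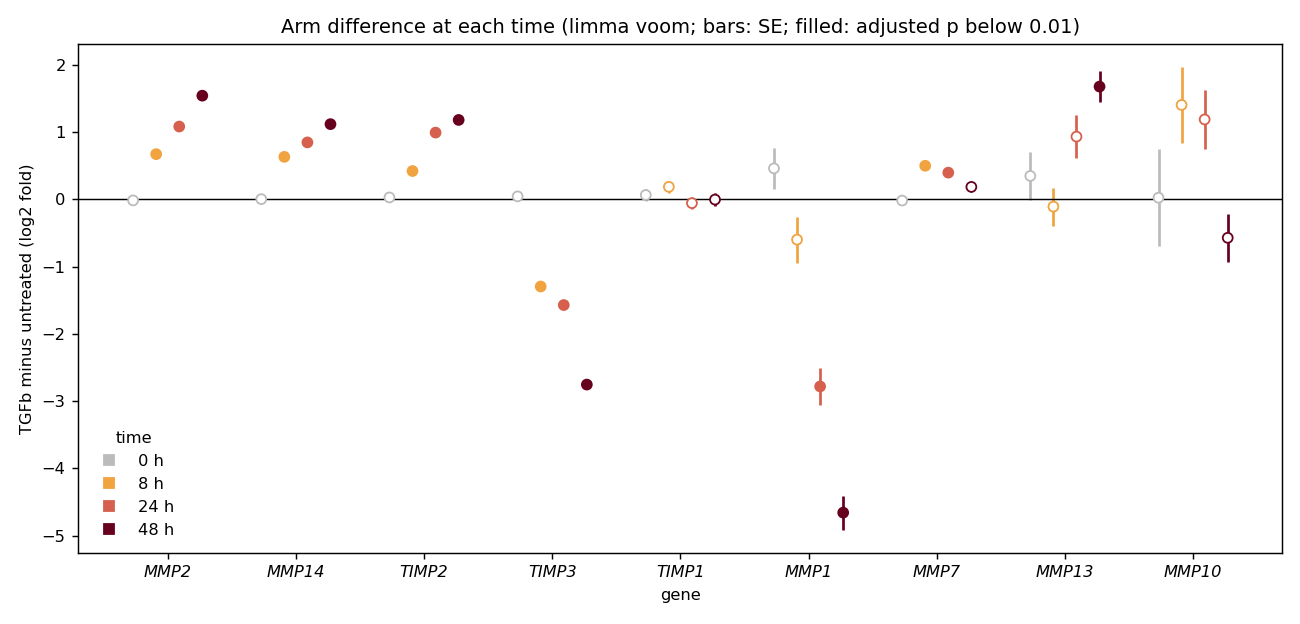
Log2 fold difference of TGFβ minus untreated cells (vertical axis, limma voom, bars for SE) for the 9 tested genes (horizontal axis) at 0, 8, 24 and 48 h, with filled points for an adjusted p below 0.01. No gene is filled at 0 h, MMP2, MMP14 and TIMP2 step upward with time to between 1.12 and 1.54 at 48 h, and TIMP3 and MMP1 reach -2.75 and -4.66, whereas TIMP1 lies near 0, on a side that depends on the scaling at 24 and 48 h.

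MMP1, interstitial collagenase, which cuts native fibrillar collagen, started near the detection limit, and rises were called in untreated cells only. Its level in untreated libraries was 0.347, 0.286 and 0.516 TPM at 0 h and 0.424, 0.235 and 0.416 at 8 h, then 1.81, 1.96 and 2.26 at 24 h and 8.02, 9.57 and 9.33 at 48 h. TGFβ libraries had 0.583, 0.435 and 0.515 TPM at 0 h, 0.190, 0.157 and 0.308 at 8 h, 0.253, 0.373 and 0.239 at 24 h and 0.259, 0.449 and 0.345 at 48 h. Arms overlapped at 0 and 8 h and were apart at 24 and 48 h, where every TGFβ library was below every untreated one. Untreated libraries held 112 to 156 counts at 24 h and 546 to 622 at 48 h, and TGFβ libraries held 17 to 20 and 15 to 25. The log2 difference at 8 h was -0.60 (SE 0.341, adjusted p = 0.236), followed by -2.78 at 24 h (SE 0.27, adjusted p = 3.34e-08) and -4.66 at 48 h (SE 0.253, adjusted p = 2.29e-12), 6.88- and 25.2-fold lower with TGFβ. Untreated cells rose by log2 2.36 at 24 h and 4.45 at 48 h. In the TGFβ arm a fall from 0 h was called at 8 h (-1.21, adjusted p = 0.00514), but not without TGFβ replicate 1 or 3 of 0 h or replicate 1 or 2 of 8 h (adjusted p up to 0.029). At 24 h that change was -0.89 (adjusted p = 0.0216) and at 48 h -0.66 (adjusted p = 0.069). The 24 h change was called with the replicate block (adjusted p = 0.00875) or the block within each time point (adjusted p = 0.00925). It was also called by edgeR (adjusted p = 0.009996) and DESeq2 (adjusted p = 0.00471).

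MMP13, the collagenase with a preference for type II collagen, was low throughout and differed late. Untreated libraries ranged from 0.131 to 0.455 TPM over all times, with 0.327, 0.455 and 0.317 TPM at 48 h. In the TGFβ arm it measured 0.247, 0.250 and 0.194 TPM at 0 h, 0.442, 0.288 and 0.214 at 8 h, 0.255, 0.671 and 0.197 at 24 h and 1.20, 1.03 and 1.11 at 48 h. Only at 48 h did the arms separate, with 73 to 81 counts in TGFβ libraries and 27 to 30 in untreated ones. The log2 difference was -0.11 at 8 h (SE 0.283, adjusted p = 0.833), 0.93 at 24 h (SE 0.325, adjusted p = 0.0273) and 1.67 at 48 h (SE 0.233, adjusted p = 4.59e-06), 3.19-fold. The 24 h difference rested on an unequal trio, since TGFβ replicate 2 had 38 counts and replicates 1 and 3 had 24 and 21. It ranged from 0.61 to 1.22 over omissions of single libraries, and its adjusted p reached 0.261 over all settings. It was called without TGFβ replicate 3 (1.22, adjusted p = 0.0064) or with the reference genes as library size (1.34, adjusted p = 0.00235). TGFβ cells rose by log2 2.26 from 0 to 48 h (adjusted p = 2.35e-07). In untreated cells the change was 0.94 (adjusted p = 0.0168), which was called without TGFβ replicate 2 of 24 h (adjusted p = 0.0056).

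MMP7, matrilysin, a small secreted protease of epithelial cells, was moderately higher with TGFβ at 8 and 24 h and declined in both arms by 48 h. It had 31.3, 33.9 and 33.7 TPM in untreated libraries at 0 h, 30.3, 30.4 and 31.1 at 8 h, 30.6, 32.6 and 30.5 at 24 h and 15.4, 14.5 and 16.2 at 48 h. TGFβ libraries had 31.1, 34.4 and 30.1 TPM at 0 h, 38.8, 41.1 and 44.4 at 8 h, 37.2, 42.7 and 41.0 at 24 h and 16.9, 16.1 and 18.7 at 48 h. The groups were separate at 8 and 24 h and overlapped at 0 and 48 h. Log2 differences were 0.50 (SE 0.0602, adjusted p = 1.61e-06) and 0.40 (SE 0.0614, adjusted p = 2.23e-05), or 1.41- and 1.32-fold, and 0.18 at 48 h (SE 0.0751, adjusted p = 0.0553). The 48 h value was 0.54 and called (adjusted p = 0.00124) with the reference genes as library size. From 0 to 48 h MMP7 fell by log2 1.19 in untreated and by 0.99 in TGFβ cells, and the difference of these changes, 0.20, was not called (adjusted p = 0.138), although it was 0.58 and called (adjusted p = 0.00845) where reference genes set library size.

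The 2 stromelysins, which degrade proteoglycans, laminin and fibronectin and can activate other MMPs, were at the edge of detection. MMP10 had 1, 3 and 1 estimated counts in untreated libraries at 0 h, 3, 3 and 2 at 8 h, 8, 5 and 6 at 24 h and 25, 17 and 30 at 48 h. TGFβ libraries held 0, 2 and 6 counts at 0 h, 9, 5 and 8 at 8 h, 14, 20 and 11 at 24 h and 10, 16 and 14 at 48 h. The highest TPM was 0.423 in the TGFβ arm, at 24 h, and 0.675 in untreated cells, at 48 h. Arm differences were not called, with log2 1.40 at 8 h (SE 0.562, adjusted p = 0.0786), 1.19 at 24 h (SE 0.443, adjusted p = 0.0387) and -0.57 at 48 h (SE 0.358, adjusted p = 0.216). The 24 h difference was called (1.61, adjusted p = 0.00566) with the reference genes as library size. All its libraries with 10 counts or more were those of untreated cells at 48 h and of TGFβ cells at 24 and 48 h, the groups through which it passed the filter, so its calls against 0 h in these groups are not read as rises. No fold is given against 0 to 6 counts. MMP3 had between 0 and 3 counts in every library, and since a count of 0 allows up to 3 counts, a difference between the arms was not detectable at this depth.

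Over 8, 24 and 48 h together, the moderated F-test called 7 of the 9 tested members, 5 higher and 2 lower with TGFβ by the mean difference, against 42.5% of all tested genes. Higher were MMP2, MMP14, TIMP2, MMP7 and MMP13, and lower were TIMP3 and MMP1, whereas TIMP1 (adjusted p = 0.323) and MMP10 (adjusted p = 0.0163) were not called. By time, 5 members differed at 8 h, 4 higher and 1 lower, where 16.4% of genes were called (9.12% higher and 7.25% lower). At 24 h 6 members differed, 4 higher and 2 lower, against 29.3% of genes (15.4% higher and 13.8% lower), and at 48 h again 6, 4 higher and 2 lower, against 32.6% (16.1% higher and 16.4% lower). The median log2 difference of the 9 members was 0.42, 0.84 and 0.18 at these times and that of all tested genes -0.02, -0.02 and -0.01, a comparison of medians that carries no test. MMP2, MMP14, TIMP2 and TIMP3 were called at each of the 3 times. MMP7 was called at 8 and 24 h and MMP13 at 48 h, but the change of the arm difference from 24 to 48 h was not called for MMP7 (-0.21, adjusted p = 0.162) or MMP13 (0.74, adjusted p = 0.245).

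Changes over time within each arm were counted as well. Those at 24 and 48 h against 0 h cross from one library code to another. Against 0 h, 3 members were called higher and 0 lower in untreated cells at 8 h (MMP2, TIMP2 and TIMP3), beside 13.2% and 12.7% of all genes and 25.9% in either direction. Of these, MMP2 and TIMP2 were not called with the reference genes as library size. At 24 h 4 were higher and 1 lower, beside 23.8% and 23.7% of all genes (47.5% in all), and at 48 h 5 were higher and 1 lower, beside 28% and 27.1% (55.1% in all). In TGFβ cells 4 members were higher and 2 lower than at 0 h after 8 h, beside 17.5% and 16.3% of all genes (33.8% in all). At 24 h 5 were higher and 2 lower, beside 24.3% and 22.7% (47% in all), and at 48 h 5 were higher and 3 lower, beside 29.8% and 28.1% (57.9% in all). MMP10 is counted among those higher in untreated cells at 48 h and in TGFβ cells at 24 and 48 h. It passed the filter through these groups, so its calls there are not read as rises. Apart from MMP10, those higher in untreated cells at 48 h were MMP1, MMP2, TIMP2 and TIMP3. In TGFβ cells they were MMP2, MMP7, MMP14 and TIMP2 at 24 h and MMP2, MMP13, MMP14 and TIMP2 at 48 h. With 9 tested members, these counts carry no test of their own.

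The test of the difference of these changes uses each arm's own 0 h libraries. Its values at 24 and 48 h, unlike those at 8 h, cross from one library code to another in each arm. The part of the codes in them was not tested. At 8 h it called MMP2, MMP7, MMP14 and TIMP2 higher and TIMP3 lower, beside 5.05% and 2.84% of all genes (7.88% in all). The MMP7 value, 0.52, was not called with the reference genes as library size (0.60, adjusted p = 0.0145). At 24 h it called the same 4 genes higher and TIMP3 and MMP1 lower, beside 9.56% and 7.02% of all genes (16.6% in all). At 48 h it called MMP2, MMP14 and TIMP2 higher and TIMP3 and MMP1 lower, beside 10.5% and 10.2% (20.7% in all). At 48 h the difference of changes was log2 1.56 for MMP2 (SE 0.0782, adjusted p = 1.7e-12), 1.11 for MMP14 (SE 0.0746, adjusted p = 1.73e-10) and 1.15 for TIMP2 (SE 0.0422, adjusted p = 1.08e-14). It was -2.80 for TIMP3 (SE 0.0863, adjusted p = 7.63e-16) and -5.12 for MMP1 (SE 0.394, adjusted p = 1.58e-09). For MMP13 it was 1.33 (SE 0.425, adjusted p = 0.0219), which was called without TGFβ replicate 2 of 24 h (adjusted p = 0.00696), and on log2(TPM + 1) or with the reference genes (adjusted p = 0.00419 and 0.0049). The untreated and TGFβ changes share no libraries, whereas the arm differences and the differences of changes share the libraries of 8, 24 and 48 h.

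**Figure D3:**
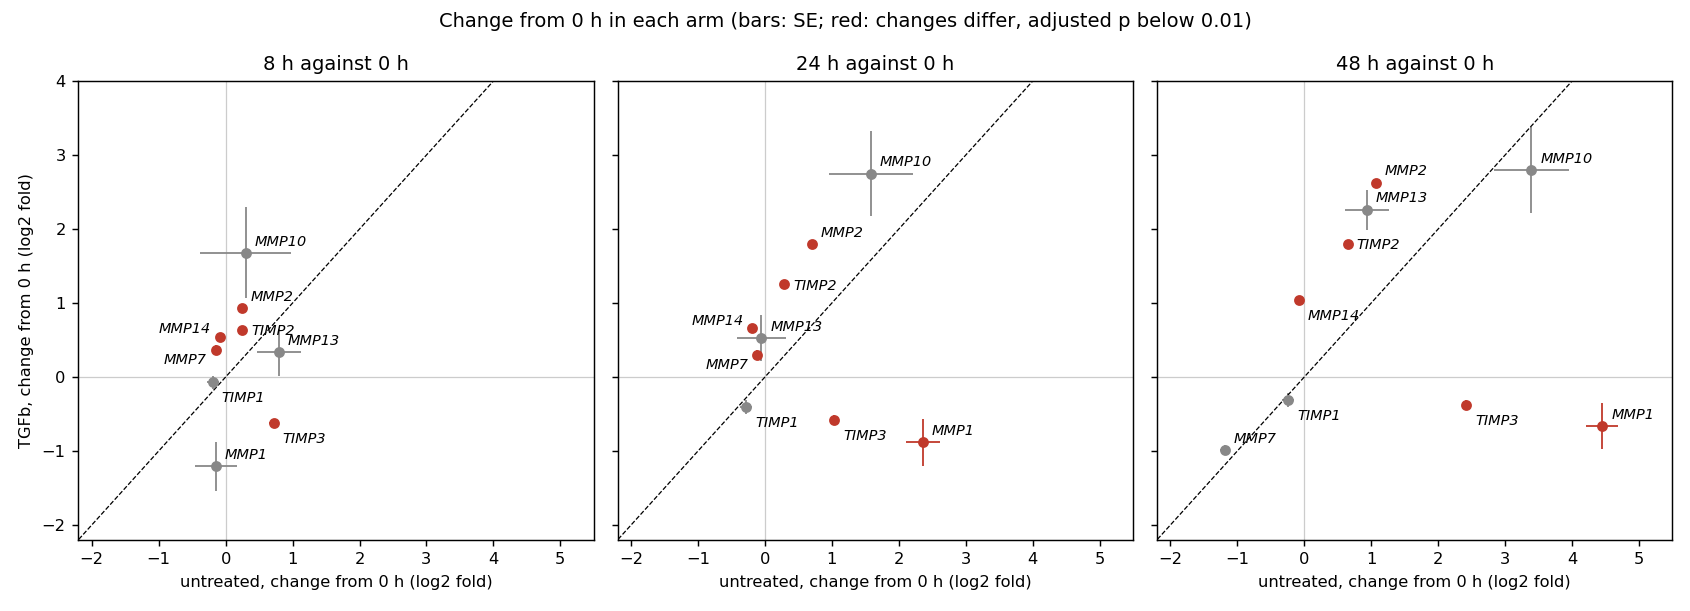
Change from 0 h as log2 fold in TGFβ cells (vertical axis) against that in untreated cells (horizontal axis) at 8, 24 and 48 h for the 9 tested genes, with bars for SE, a dashed line where both changes are equal, and red where the changes differ at an adjusted p below 0.01. At 48 h MMP2, TIMP2 and MMP14 lie above the line and TIMP3 and MMP1 far to the right of it, at 2.42 and 4.45 in untreated cells. The sign of TIMP3 in the TGFβ arm, at -0.38, turns where reference genes set library size.

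Whether the arm difference itself grew was tested between time points. From 8 to 48 h it changed in 6 of 9 members, 4 upward and 2 downward, beside 6.68% and 7.34% of all genes (14% in all). MMP2 gained log2 0.87 (SE 0.0766), TIMP2 0.76 (SE 0.0415), MMP14 0.49 (SE 0.0737) and MMP13 1.78 (SE 0.367). TIMP3 and MMP1 widened downward by -1.46 (SE 0.0856) and -4.06 (SE 0.425). From 24 to 48 h, within one pair of library codes, the change was called upward in MMP2 (0.46) and TIMP2 (0.19) and downward in TIMP3 (-1.18) and MMP1 (-1.88), beside 3.5% and 5.61% of all genes (9.12% in all). From 8 to 24 h it was called upward in MMP2 (0.41) and TIMP2 (0.57) and downward in MMP1 (-2.18), beside 4.15% and 2.54% of all genes (6.7% in all). The small step of TIMP2 from 24 to 48 h was not called without any 1 of 4 libraries or with the reference genes as library size (0.10), and that of MMP1 from 8 to 24 h was not called without TGFβ replicate 3 of 8 h (adjusted p = 0.0172). MMP7 was not called in any of these steps.

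The order of levels shifted with time and arm. In untreated cells at 0 h TIMP1 (398 ± 19 TPM, SD, n = 3) and MMP2 (370 ± 12 TPM) overlapped. TIMP2 (194 ± 2.1 TPM), MMP14 (135 ± 6.4 TPM), TIMP3 (39.0 ± 1.5 TPM) and MMP7 (33.0 ± 1.4 TPM) followed without overlap between neighbours, and the remaining genes were below 1 TPM. After 48 h without TGFβ, MMP2 led with 814 ± 9.2 TPM, followed by TIMP1 with 356 ± 6.0 TPM, TIMP2 with 324 ± 2.6 TPM and TIMP3 with 223 ± 1.1 TPM. MMP14 with 136 ± 2.6 TPM, MMP7 with 15.4 ± 0.84 TPM and MMP1 with 8.97 ± 0.83 TPM came next, and no neighbours among these 7 overlapped. After 48 h with TGFβ, MMP2 reached 2287 ± 25 TPM and TIMP2 724 ± 5.9, ahead of TIMP1 with 350 ± 17 TPM and MMP14 with 293 ± 4.8 TPM. TIMP3 with 32.6 ± 1.3 TPM, MMP7 with 17.2 ± 1.3 TPM and MMP13 with 1.11 ± 0.084 TPM followed. MMP1, at 0.351 ± 0.095 TPM, and MMP10, at 0.274 ± 0.071 TPM, overlapped in that group. TIMP2 thus stood below TIMP1 in untreated cells and above it in TGFβ cells at 48 h, and TIMP3 stood above MMP14 in the first and below it in the second.

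Sums of TPM give the transcript balance of the 7 MMPs and 3 TIMPs, without saying anything of protein or activity. Family members outside these 10 genes, such as MMP11 and TIMP4, are not in the sums. At 0 h the MMP sum divided by the TIMP sum was 0.855 ± 0.033 (SD, n = 3) in untreated and 0.831 ± 0.097 in TGFβ cells. At 8 h the ratios were 0.923 ± 0.014 and 1.25 ± 0.0073. By 24 h they had reached 1.18 ± 0.057 without and 1.92 ± 0.15 with TGFβ. At 48 h untreated libraries had 1.08 ± 0.011 and TGFβ libraries 2.35 ± 0.054, and from 8 h on the TGFβ libraries were above all untreated ones. MMP2 made up 68.7% of the MMP sum in untreated and 69.6% in TGFβ cells at 0 h, and 83.5% and 88.0% at 48 h. The ratio of MMP2 to TIMP2 went from 1.91 ± 0.046 to 2.51 ± 0.0083 in untreated and from 1.91 ± 0.097 to 3.16 ± 0.060 in TGFβ cells. These ratios are descriptions with no test of their own.

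Among the 3 listed inhibitors the make-up diverged more. TIMP4, which is given below and stood above TIMP3 in TGFβ cells at 48 h, is not in the TIMP sum. TIMP3 was 6.18% of the TIMP sum in both arms at 0 h, and at 48 h it was 24.7% ± 0.25 in untreated and 2.95% ± 0.076 in TGFβ cells. TIMP2 went from 30.7% to 35.9% without and from 30.3% to 65.4% with TGFβ. TIMP1 went from 63.1% to 39.4% in untreated and from 63.5% to 31.6% in TGFβ cells, although its own level was not called different between the arms at any time. TIMP2 thereby exceeded TIMP3 by 1.45 ± 0.014 times in untreated and 22.2 ± 0.91 times in TGFβ cells at 48 h, from 4.97 ± 0.22 and 4.91 ± 0.13 times at 0 h.

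**Figure D4:**
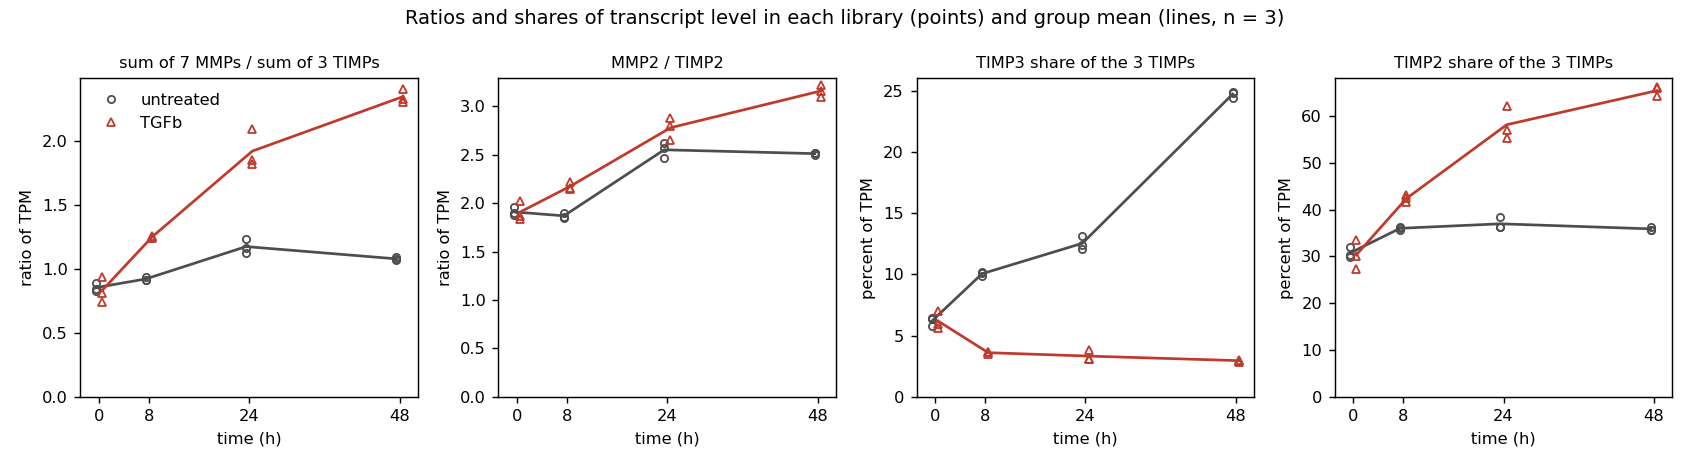
Ratios of summed TPM and shares of the TIMP sum in percent (vertical axes) against time in hours (horizontal axes), with circles for untreated and triangles for TGFβ libraries and lines through the means of 3 replicates. The MMP to TIMP ratio reaches 2.35 with TGFβ and 1.08 without at 48 h, and the TIMP3 share reaches 24.7% in untreated cells and 2.95% in TGFβ cells.

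Each member above 10 TPM was led by the same transcript in all 8 groups. TIMP3 and MMP1 were measured through 1 transcript each (TIMP3-201 and MMP1-201), and TIMP1-201 held 96.1% to 98.9% of TIMP1 and MMP7-201 99.0% to 99.6% of MMP7 in the group means. For MMP14, MMP14-201 had 116 ± 5.7 TPM in the TGFβ arm at the start and 245 ± 7.1 TPM after 48 h, and had 115 ± 4.2 and 116 ± 2.0 TPM without. MMP14-205 went from 9.17 ± 7.4 to 39.1 ± 3.4 TPM with TGFβ and from 15.0 ± 3.0 to 16.3 ± 1.3 TPM without. Its share of MMP14 was 7.1% with and 11.1% without TGFβ at 0 h, and 13.3% and 12.0% at 48 h. TIMP2 was divided between TIMP2-203, with 60.6% to 66.3%, and TIMP2-201, with 33.2% to 38.6% of the gene. MMP2 was divided between MMP2-203, with 40.1% to 47.7%, and MMP2-201, with 34.7% to 43.9%, next to MMP2-208, whose share was above 10% in 1 group (12.1%, TGFβ cells at 0 h). In TGFβ cells at 48 h MMP2-203 had 1091 ± 55 and MMP2-201 935 ± 35 TPM, against 386 ± 12 and 340 ± 8.4 TPM in untreated cells. Among the low genes, MMP13-201 held 53.5% to 78.4% of MMP13 and MMP13-202 the rest, and the few counts of MMP10 and MMP3 fell on MMP10-201 and MMP10-202 and on MMP3-201, MMP3-202 and MMP3-203 in shares that a handful of reads can shift. Estimates for overlapping transcripts of 1 gene depend on how kallisto divided shared reads.

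For members called by the F-test and at 10 TPM or more, the 2 genes most alike in course were found by Pearson correlation of log2 CPM over the 24 libraries. These libraries share arms, times and depth, so no p is given. For MMP2 these were COL22A1 (r = 0.993) and RPS6KA2 (r = 0.990), for TIMP2 ITGA11 (r = 0.997) and again RPS6KA2 (r = 0.992), and for MMP14 GNA12 (r = 0.994) and COL5A1 (r = 0.988). For TIMP3 they were TLL1 (r = 0.971) and EPHA10 (r = 0.965) and for MMP7 AP2M1 (r = 0.957) and CCDC34 (r = 0.949).

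The rest of the family was read from a list of 16 other MMP genes and TIMP4, of which 12 passed the filter. The F-test called 2 of them higher and 3 lower with TGFβ, against 21% and 21.5% of all tested genes, and 7 were not called. TIMP4, the remaining TIMP, was higher in the TGFβ arm at each time, at 112 ± 0.92 against 78.2 ± 1.5 TPM after 8 h and 124 ± 10 against 58.0 ± 2.0 TPM after 24 h. By 48 h it had 89.2 ± 1.9 TPM with TGFβ and 36.2 ± 0.74 TPM without. Its log2 differences were 0.57, 1.13 and 1.32 (adjusted p = 7.31e-08, 8.32e-13 and 1.04e-13). MMP11, stromelysin-3, was 3.31-fold higher with TGFβ at 48 h, at 34.3 ± 1.6 against 10.3 ± 0.42 TPM (adjusted p = 1.83e-14). MMP24, a membrane-type protease, was 4.25-fold lower at 48 h, at 2.82 ± 0.13 against 12.1 ± 0.26 TPM (adjusted p = 3.61e-15). MMP28, epilysin, was 2.43-fold lower, at 0.410 ± 0.12 against 1.29 ± 0.13 TPM (adjusted p = 0.00354), a call that was lost without replicate 1 or 2 of either arm at 48 h (adjusted p up to 0.0394) or with the reference genes (adjusted p = 0.0132). MMP12, macrophage elastase and the third gene lower, named here after its values were seen, was at 0.400 ± 0.13 TPM in untreated and 0.00633 ± 0.011 TPM in TGFβ cells at 48 h. With 17 to 31 counts in untreated and 0 to 1 in TGFβ libraries at that time it passed the filter mainly through the untreated libraries, and nothing is read from its call. MMP15 differed by log2 -0.32 at 48 h (adjusted p = 0.0249), with the sign turned to 0.0362 under the reference genes. MMP9, the second gelatinase, did not pass the filter and had means of 0.0334 ± 0.030 TPM in untreated and 0.205 ± 0.098 TPM in TGFβ cells at 48 h. By qRT-PCR, the study reports MMP9 mRNA as induced by TGFβ in this line. The RNA-Seq values of MMP9 were not tested.

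Genes that activate, bind or clear these proteases were taken as a further list. Of 13 such genes the F-test called 6 higher and 3 lower with TGFβ, beside 21% and 21.5% of all tested genes. FURIN, the convertase that removes the propeptide of MMP14, was 2.3-fold higher at 48 h, with 163 ± 5.6 against 71.6 ± 1.1 TPM (adjusted p = 2.16e-09). PLAU, the urokinase that starts the plasmin cascade, had 489 ± 6.5 against 93.5 ± 1.4 TPM, a difference of log2 2.41 (adjusted p = 3.84e-19). A2M, the plasma inhibitor that traps proteases of all classes, was at 185 ± 4.1 TPM in untreated cells at 48 h and at 31.1 ± 1.4 TPM with TGFβ, 5.92-fold lower (adjusted p = 4.49e-18). PCSK6, another proprotein convertase, was 3.63-fold lower, with 8.27 ± 0.22 against 28.3 ± 1.6 TPM (adjusted p = 6.36e-17).

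Of 14 ADAM and ADAMTS genes, metalloproteinases of a neighbouring family, 8 were called higher and 4 lower by the F-test, beside 21% and 21.5% of all tested genes. At 48 h ADAM19 was 4.1-fold higher (19.8 ± 0.30 against 5.08 ± 0.30 TPM, adjusted p = 6.76e-17) and ADAM12 2.28-fold higher (85.1 ± 2.7 against 40.1 ± 1.2 TPM, adjusted p = 6.81e-16). ADAMTS6 was 2.96-fold (adjusted p = 2.28e-13) and ADAMTS15 1.64-fold higher (adjusted p = 1.55e-07), while ADAMTS1 was 2.24-fold lower (adjusted p = 2.42e-13). Transcription factors of the AP-1, ETS and RUNX families, which are known to act on MMP promoters, had 6 of 13 called higher and 6 lower, beside the same 21% and 21.5% of all tested genes. JUNB was 2.82-fold higher at 48 h (99.3 ± 0.93 against 35.8 ± 1.8 TPM, adjusted p = 2.07e-08) and ETV5 1.64-fold higher (adjusted p = 3.12e-11). ETS2 was 1.19-fold higher (adjusted p = 6.94e-06), which was not called on log2 TPM (adjusted p = 0.0117 and 0.0124). RUNX2 was 1.85-fold (adjusted p = 5.6e-13) and ELF3 2.35-fold lower (adjusted p = 8.36e-11). In the list of 5 TGFβ targets all were higher, with log2 differences at 48 h of 4.53 for PMEPA1, 3.10 for SKIL, 2.61 for TGFBI, 2.47 for SMAD7 and 1.94 for LTBP2. The differences of MMP2, MMP14 and TIMP2 at that time were smaller than any of these, and those of TIMP3 and MMP1 had the opposite sign. Medians of the mean log2 difference over 8, 24 and 48 h were 0.67 for the 9 members (the value of MMP10, which was not called), -0.25 for the other MMPs and TIMP4, 0.13 for the activation and clearance genes and 0.34 for the ADAM and ADAMTS genes. They were -0.19 for the transcription factors and 2.32 for the TGFβ targets, beside -0.02 for all tested genes. Since MMP10 passed the filter through the groups in which it was high, the median of the members is not read against the others. These medians carry no test.

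**Figure D5:**
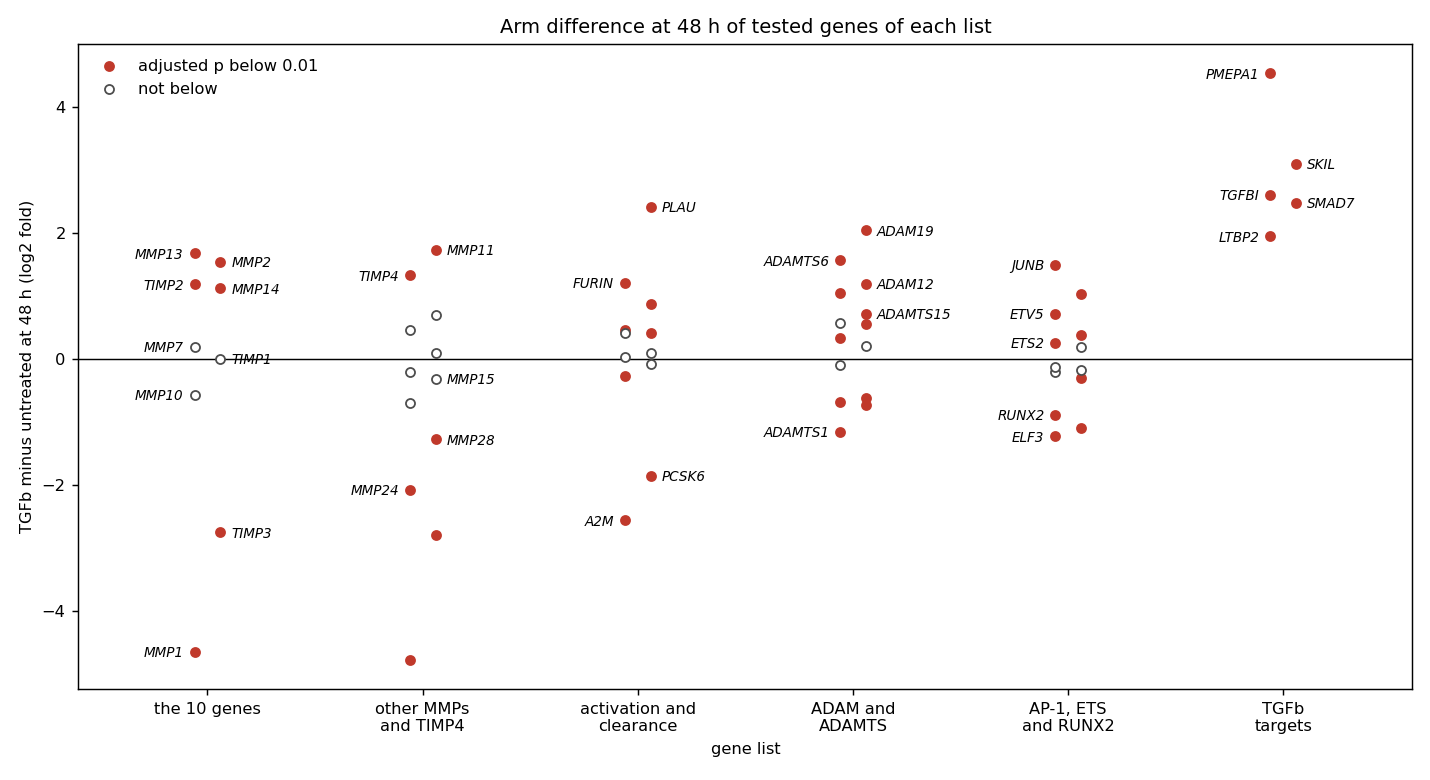
Log2 fold difference of TGFβ minus untreated cells at 48 h (vertical axis) for tested genes of 6 gene lists (horizontal axis, points shifted sideways to part the labels), filled red for an adjusted p below 0.01 and open otherwise. The TGFβ targets all lie above 1.9, whereas the members spread from -4.66 for MMP1 to 1.67 for MMP13 and the other lists hold genes on both sides of 0, TIMP1 and MMP15 being those named whose side depends on the scaling.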

How the data were processed

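Estimated counts, TPM and effective lengths per transcript were deposited by the authors, 1 table per library. Per the methods and the submitters' processing notes the authors pseudoaligned reads of total RNA libraries (HiSeq 4000) with kallisto 0.43.0 to Ensembl transcripts of GRCh38. The deposited estimated counts are expected reads per transcript, not normalized, while the deposited TPM correct each count for its transcript's effective length and sum to the same total in every library, again as made by the authors' software. Deposited effective lengths, another output of kallisto used by the authors, entered 1 alternative only.

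Of 173259 transcripts 155518 (89.76%) were matched by identifier to GENCODE release 44, 17741 were left out, and the genes held 94.8% to 95.2% of counts. Counts were summed per gene and rounded. Genes with at least 10 counts in at least 3 libraries were tested with limma 3.58.1 in R 4.3.3 (voom weights, TMM factors, 1 mean per group). The study's methods name limma voom, but not the TMM factors or the group means. Contrasts covered the arms at each time, each arm against its own 0 h, the difference of these changes, and the change of the arm difference between times. The threshold was a Benjamini-Hochberg adjusted p of 0.01 over all genes. The study reports far fewer regulated genes at this threshold than the 7412 that the F-test called here. The reason was not tested. edgeR 4.0.16 and DESeq2 1.42.0 were alternatives, as were tests on log2 TPM with pseudocounts of 1 and 0.1, counts scaled by length, other library sizes and filters, single time points, replicate blocks and the omission of each library. The block within each time point and the omission of the 4 replicate 2 libraries of 0 and 24 h were chosen after seeing the data. The scripts were tested on simulated data. TPM are given as mean ± SD of 3. The figures were drawn with matplotlib 3.10.9.

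The 10 genes and all lists were chosen with earlier results of these data known. From each other list up to 5 tested genes of at least 1 TPM with the lowest F-test p were named, and MMP9 because the study names it. One gene of these lists is not reported here, although it enters the counts. Transcripts with at least 10% of a gene were named. Replicates are biological per the study, but the labels give only their numbers, and a p measures the spread between these libraries. No 2 replicates agreed within sampling noise (chi-square per gene 3.10 to 55.5 over 24 pairs), and the replicate 2 libraries of 0 and 24 h stood apart. Same-numbered libraries of the arms deviated together at 0 h (correlations 0.54, 0.70 and 0.21) and 24 h (0.46, 0.71 and 0.40). They did not at 8 h (0.03, -0.04 and 0.13) or 48 h (0.06, 0.00 and 0.15). Untreated replicate 1 with TGFβ replicate 3 also gave 0.42 at 0 h and 0.35 at 24 h. Untreated replicate 3 with TGFβ replicate 1 gave 0.09 and 0.42. Only replicate 2 was thus matched by number in both arms, and whether replicates 1 and 3 are paired by number cannot be told from these values.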

Additional observations from a re-analysis of the deposited data

Results flagged for a closer look

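The difference between the arms changed between time points in 13 tests of members, each a contrast of 2 arm differences in limma voom. For MMP1 the difference widened downward, by log2 -2.18 from 8 to 24 h (SE 0.435, adjusted p = 0.00166), -1.88 from 24 to 48 h (SE 0.37, adjusted p = 0.00129) and -4.06 from 8 to 48 h (SE 0.425, adjusted p = 3.73e-07). The first of these was not called without TGFβ replicate 3 of 8 h (-1.87, adjusted p = 0.0172), and the second was not called without the 4 replicate 2 libraries of 0 and 24 h (-1.69, adjusted p = 0.0103). For TIMP3 it widened downward by -1.18 from 24 to 48 h (SE 0.0856, adjusted p = 6.78e-09) and by -1.46 from 8 to 48 h (SE 0.0856, adjusted p = 7.23e-11).

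MMP2 gained 0.41 from 8 to 24 h (SE 0.0775, adjusted p = 0.00098), 0.46 from 24 to 48 h (SE 0.0757, adjusted p = 0.000216) and 0.87 from 8 to 48 h (SE 0.0766, adjusted p = 3.08e-08). TIMP2 gained 0.57 from 8 to 24 h (SE 0.0419, adjusted p = 7e-09), 0.19 from 24 to 48 h (SE 0.0413, adjusted p = 0.00317) and 0.76 from 8 to 48 h (SE 0.0415, adjusted p = 2.63e-11). Its step from 24 to 48 h was not called without any 1 of untreated replicate 3 of 24 h, untreated replicate 1 of 48 h, TGFβ replicate 1 of 24 h or TGFβ replicate 2 of 48 h (adjusted p up to 0.0131), and was 0.10 (adjusted p = 0.64) with the reference genes as library size. MMP14 gained 0.49 from 8 to 48 h (SE 0.0737, adjusted p = 4.45e-05), and its step from 24 to 48 h, 0.27 (adjusted p = 0.0148), was called with the replicate block (0.27, adjusted p = 0.00566). Among other settings, that step was also called by DESeq2 (0.27, adjusted p = 0.00443) and with library totals (0.28, adjusted p = 0.00674). Over all settings its adjusted p reached 0.0682. MMP13 gained 1.78 from 8 to 48 h (SE 0.367, adjusted p = 0.0011), which was not called on length-scaled counts (1.77, adjusted p = 0.0133) or on log2(TPM + 0.1) (1.49, adjusted p = 0.0187). Whether the library codes, which differ between 8 and 24 h within each arm, have a part in the steps from 8 h was not tested, and the steps from 24 to 48 h lie within a code.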

How the results depend on the processing

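The 17 counts of called members gave 633 values under alternatives, of which 631 were within 1.5 times the count reported. With 9 tested members a count of 6 or more cannot rise past that bound, so this share says little of stability. In settings other than single omissions the count of the F-test ranged from 7 to 9. There the counts between arms ranged from 6 to 9 at 24 h and from 6 to 8 at 48 h. Untreated cells at 8 h against 0 h went from 3 to 5 called members when the 4 replicate 2 libraries of 0 and 24 h were left out, an alternative chosen after seeing the data, and the difference of changes at 48 h went from 5 to 8 with the 4 reference genes as library size. Omission of single libraries left the overall count between 7 and 8, and the counts between arms at 5 for 8 h, 6 to 7 for 24 h and 6 for 48 h. The 138 differences of single genes gave 5159 values, of which 5047 kept direction and side of the threshold, 41 lost and 51 gained a call and 20 turned in sign. Of the 20, 10 came from omitted libraries, with ranges of -1.51 to 0.22 for the difference of changes of MMP10 at 48 h, -0.37 to 0.10 between the arms for MMP13 at 8 h, and for TIMP1 -0.124 to 0.0482 between the arms after 24 h and -0.0469 to 0.0258 after 48 h, -0.198 to 0.0303 in the TGFβ arm after 8 h, and -0.00393 to 0.224 and -0.194 to 0.0348 for the difference of changes after 8 and 48 h. With the reference genes as library size, which moved the median of all genes by -0.29 to 0.61 depending on the contrast, TIMP1 gave 0.39 and 0.35 between the arms at 24 and 48 h, 0.28 in the TGFβ arm at 48 h and 0.35 and 0.31 for the difference of changes at 24 and 48 h, TIMP2 gave -0.0109 in untreated cells at 24 h, TIMP3 0.22 in the TGFβ arm at 48 h and MMP15 0.0362 between the arms at 48 h. TIMP1 at 48 h was also 0.00306 on length-scaled counts and 0.00397 in a fit of that time point alone. The cause of these turns was not tested. With the replicate block the overall test called 7 members and the arms differed in 5, 6 and 6 members at 8, 24 and 48 h, as without it. Over all genes the block called 8091 in the overall test against 7412, the block within time points 9835. Besides the calls gained that are given with MMP1, MMP14 and TIMP1 the replicate block added MMP15 at 48 h (-0.31, adjusted p = 0.00812), and it changed no other call. Low counts limit MMP10, MMP13 and MMP1 at 0 and 8 h, and MMP3 could not be tested.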
